A study of Mus musculus with 18 samples.

Results

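Immunoglobulin transcripts were described in colon, lung and liver of mice from the gene-level values of 18 mRNA libraries. Genes were taken as members when their symbol named an immunoglobulin heavy, kappa or lambda V segment, a D segment or a constant gene, or was Jchain, and when they reached at least 1 TPM (transcript abundance corrected for length and scaled to the same total in every library) in at least 2 of the 18 libraries. Of 383 rows with such a symbol, 117 were kept, out of 55401 genes in all. They were 44 of 185 heavy V segments, 60 of 160 kappa V segments, all 3 lambda V segments, 4 of 8 heavy constant genes, the single kappa constant gene, 3 of 4 lambda constant genes, Jchain, and Ighmbp2. The last encodes a helicase and matched by its name alone, so it was left out of every sum. Ighmbp2 stayed in the counts of members tested and called. None of the 20 D segments reached 1 TPM in any library (0 members). A further 30 rows reached 1 TPM in 1 library only and were left out, with highest values from 1.0 to 24.0 TPM. The 25 members that reached it in exactly 2 libraries had highest values from 1.19 to 9.17 TPM.

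The animals were C57BL/6N mice of 7 weeks, and the labels name no engineered allele. Some were given RECTAS by mouth (100 mg/kg), a small molecule studied for its effects on splicing, suspended in 0.5% carboxymethyl cellulose (CMC), and the controls were given CMC only (vehicle), with an interval of 4 h between administrations. The animals were sampled 8 h from the start of dosing, which gave 3 vehicle and 3 RECTAS libraries for each of the 3 tissues. The labels name neither the animal behind a library nor its sex, so p-values measure only the spread between these libraries, which may be technical.

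An antibody pairs heavy chains with light chains, and its variable ends are encoded by V segments that each B cell joins to shorter segments by DNA recombination. The constant gene sets the isotype: Ighm and Ighd are used by naive B cells, and class switching joins the same V segment to Igha or to a gene of the Ighg group. Resting B cells carry little immunoglobulin mRNA. Plasma cells, which secrete antibody, hold it in very large amounts. In the gut wall plasma cells mainly make IgA, which the J chain links into dimers that epithelial cells carry to the lumen with the receptor Pigr. Lung B cells include naive and recirculating cells, and adult mouse liver holds few B cells by comparison.

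Marker genes matched the tissue labels. Sftpc, the surfactant protein of alveolar type 2 cells, was listed at 28612 to 35899 TPM in lung and at 0.4 TPM or less elsewhere. Alb, albumin, reached 57361 to 75688 TPM in liver, and Car1, a carbonic anhydrase of colonocytes, 7456 to 25706 TPM in colon. Lung libraries carried Alb at 0.8 to 782 TPM, highest in vehicle library 3. That library also carried Car1 at 25.6 TPM, against 0.2 TPM or less in the other lung libraries. Krt20, another colon marker, was at 1.75 TPM there and at 0.07 TPM or less in the other lung libraries. The source of these transcripts was not tested. Summed TPM of 5 erythroid genes reached 5891 to 10788 in lung but only 305 to 618 in liver and 24.1 to 117 in colon, so blood differed between the tissues, and its part in the immunoglobulin differences was not tested. Since TPM is scaled to a fixed total, the number of reads under a value is not known. In bulk tissue fewer cells of a type and less RNA per cell cannot be told apart.

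Colon carried an IgA pattern and lung and liver an IgM and IgD pattern. Igha (ENSMUSG00000095079, GRCm38 chromosome 12, 113254830 to 113260236), the constant gene of IgA, stood at 210, 77.5 and 325 TPM in the 3 colon vehicle libraries, and with RECTAS at 140, 379 and 82.6 TPM. In lung it stood at 15.7, 9.55 and 12.5 TPM with vehicle and at 15.8, 19.9 and 8.86 TPM with RECTAS. In liver it lay between 0.44 and 1.59 TPM. Every colon library was thus above every lung library, and every lung library above every liver library. The lowest colon values, in vehicle library 2 and RECTAS library 3, came with the highest Car1 of the 6 colon libraries (25529 and 25706 TPM, against 7456 to 16720 TPM), and the part of the tissue sampled in the spread of Igha was not tested.

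Ighm (ENSMUSG00000076617, chromosome 12, 113418558 to 113422730), the constant gene of IgM, ran the other way. It stood at 100.2, 98.2 and 72.4 TPM in lung with vehicle and at 73.1, 96.2 and 74.5 TPM with RECTAS. In colon it was 3.85, 3.41 and 5.83 TPM with vehicle and 4.57, 7.42 and 24.9 TPM with RECTAS, the last library lying apart from the other 5. In liver it lay between 5.11 and 11.8 TPM. Ighd, the constant gene of IgD on naive B cells, stood at 21.3 to 35.1 TPM in lung and at 1.01 to 1.99 TPM in liver. In colon it was 0.55 TPM or less in 5 libraries and 4.73 TPM in the library labelled RECTAS 3.

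**Figure D1:**
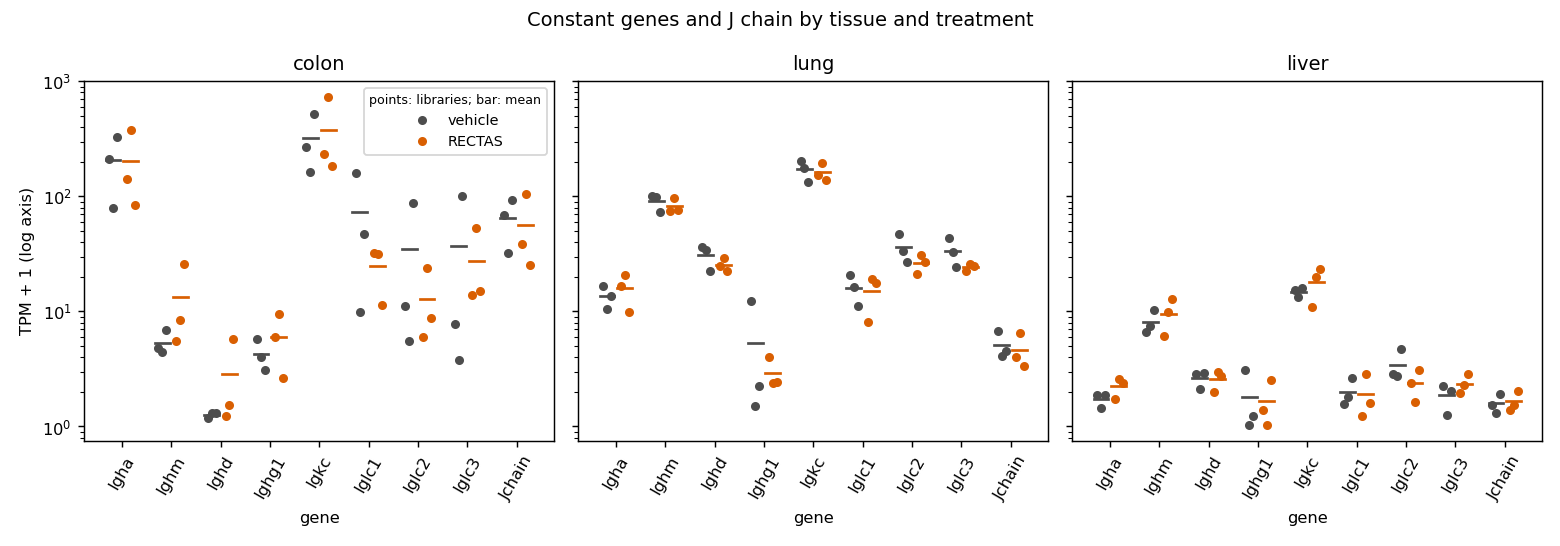
Values of 8 constant genes and Jchain in colon, lung and liver, as TPM + 1 on a log axis; points are libraries, bars are means of 3, and colours separate vehicle from RECTAS. Igha and Jchain are high in colon, Ighm and Ighd in lung, and in colon the points of a gene spread widely within both treatments.

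As shares of the summed TPM of the 4 heavy constant members, Igha made up 95.2% ± 2.86 (SD, n = 3) in colon vehicle libraries and 87.3% ± 12.8 in colon RECTAS libraries. It made up 9.36% ± 2.47 and 11.9% ± 3.08 in lung, and 6.96% ± 1.42 and 10.4% ± 2.25 in liver. Ighm made up 66.2% ± 3.93 and 66.4% ± 3.43 in lung, and Ighd 21.7% ± 1.84 and 20.1% ± 0.61. The division of isotypes in lung therefore varied by a few percent between libraries. In liver Ighm was 69.8% ± 14.1 and 71.0% ± 0.53, although the liver totals of heavy constant genes were only 7.24 to 16.5 TPM. The Ighm share in colon was 1.75% to 4.05% in 5 libraries and 21.9% in RECTAS library 3. Without that library the mean share of the RECTAS group was 2.47%, against 8.94% with it.

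Among the IgG genes Ighg1 was the single member. It stood at 1.65 to 8.5 TPM in colon, at 11.2 TPM in lung vehicle library 1 against 0.51 to 2.98 TPM in the other 5 lung libraries, and at 0.04 to 2.1 TPM in liver. In liver vehicle library 1 it held 20.2% of the heavy constant TPM, against 0.32% to 9.42% in the other liver libraries. Ighg2b reached 1.0 TPM in 1 library at most. Ighg2c, Ighg3 and Ighe, the constant gene of IgE, stayed at or below 0.53, 0.8 and 0.06 TPM in all 18 libraries.

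**Figure D2:**
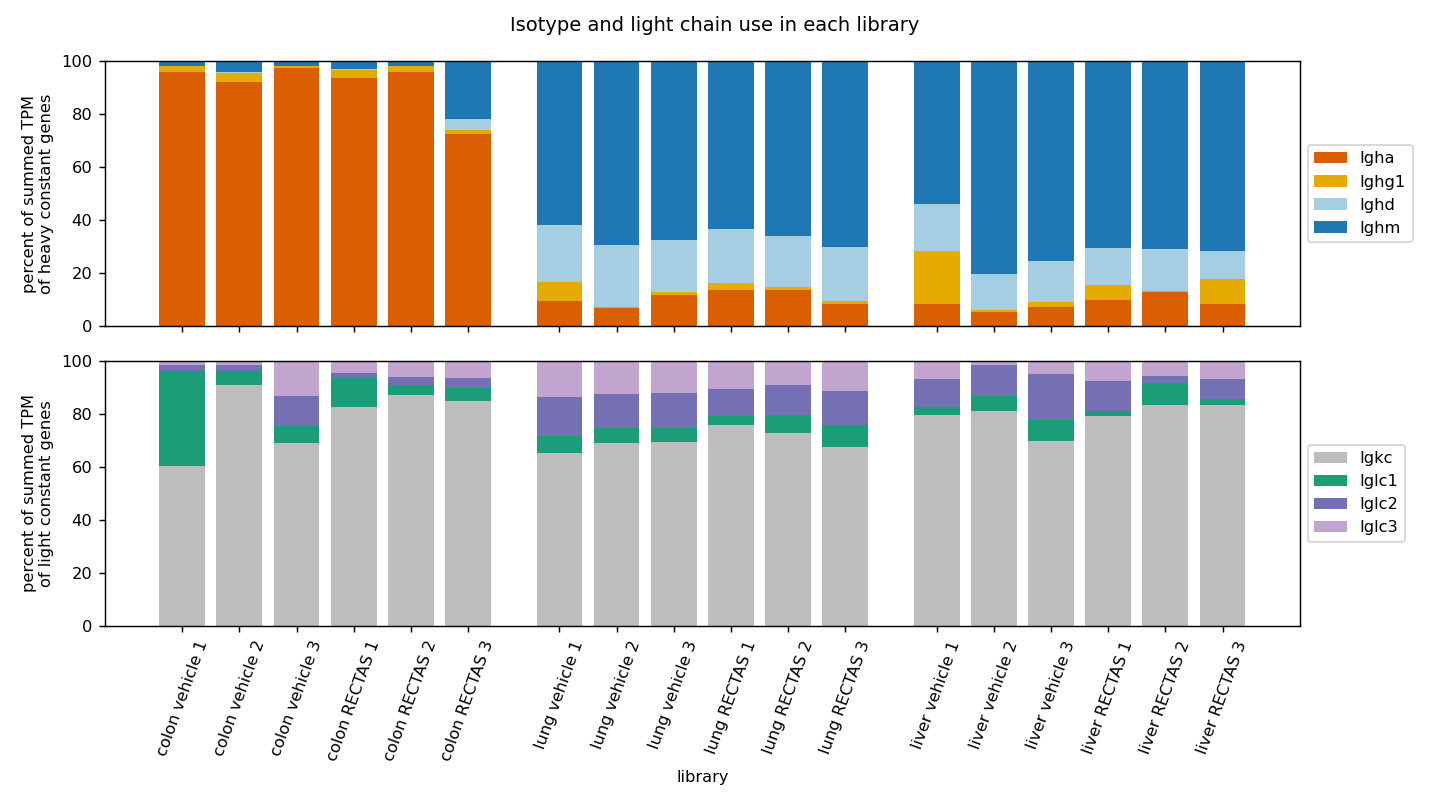
Percent of summed TPM held by each heavy constant gene (upper bars) and each light constant gene (lower bars) in the 18 libraries. Igha fills 72.5% to 97.5% of the upper bar in colon and 5.45% to 13.7% in lung and liver, and Iglc1 stands out in colon vehicle library 1.

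Jchain (ENSMUSG00000067149, chromosome 5, 88519809 to 88527891, minus strand) encodes the joining chain of dimeric IgA and pentameric IgM. It stood at 68.0, 31.3 and 92.0 TPM in colon with vehicle and at 37.4, 103 and 24.5 TPM with RECTAS. In lung it was 2.35 to 5.75 TPM and in liver 0.3 to 1.04 TPM. Within colon its order over the 6 libraries was the order of Igha, except that the lowest pair traded places. Per 100 TPM of Igha there were 26.7 to 40.4 TPM of Jchain in colon and 18.9 to 36.7 TPM in lung. Per TPM of Ighm there were 0.98 to 17.7 TPM of Jchain in colon and 0.03 to 0.06 TPM in lung, so the ratio to Igha overlapped between colon and lung and the ratio to Ighm did not. In liver, where Jchain and Igha lay near or below 1 TPM, there were 34.0 to 104.5 TPM of Jchain per 100 TPM of Igha. Per TPM of Ighm there were 0.05 to 0.10 TPM of Jchain in liver, so that ratio overlapped between liver and lung.

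**Figure D3:**
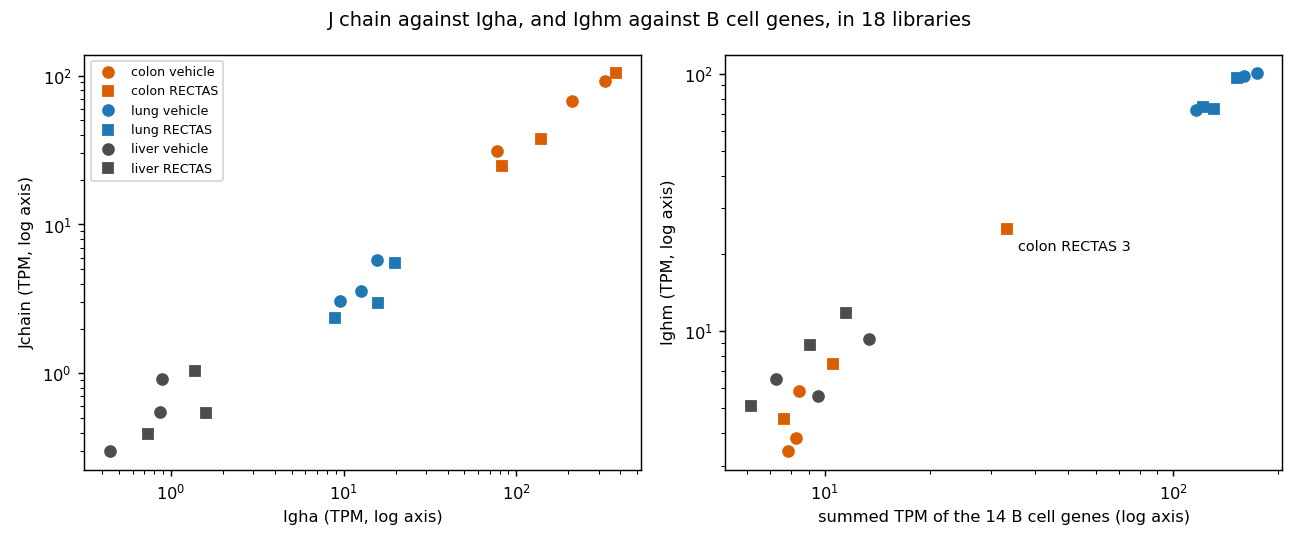
Left, Jchain against Igha in 18 libraries (TPM, log axes); right, Ighm against the summed TPM of 14 B cell genes (log axes); colours are tissues, circles vehicle and squares RECTAS. Jchain rises with Igha from liver to colon, with more Jchain for its Igha in most liver libraries. Colon RECTAS library 3 stands between the other colon libraries and the lung libraries in the right panel.

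The tissue differences were tested in the 9 vehicle libraries with limma on log2(TPM + 1), with p-values adjusted by Benjamini-Hochberg over all 16715 genes tested. Of the 117 members 60 passed the filter of 1 TPM in at least 3 of the 9 libraries, and 2 of those (1 for colon, 1 for lung) passed through a single tissue, which had to differ. Between lung and colon 6 members were higher in lung and 11 lower. Of all genes tested, 51% were called higher in lung and 24.7% lower. The log2 difference between lung and colon had a median of -0.33 over the 60 members and of 0.35 over all genes tested. The median of all genes moved to 0.01 under median ratio scaling, where 4 members were higher and 18 lower, and to 0.02 under quantile normalisation, with 3 higher and 20 lower.

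Of the heavy constant genes and Jchain, 4 were called between lung and colon. Igha was lower in lung (12.6 ± 3.07 against 204 ± 124 TPM, mean ± SD, n = 3) by 3.72 on the log2 scale (SE 0.44, limma adjusted p = 4.7e-05). Jchain was lower by 3.56 (SE 0.37, limma adjusted p = 1.6e-05). Ighm was higher in lung (90.3 ± 15.5 against 4.36 ± 1.29 TPM, 20.7-fold in means, log2 difference 4.10, SE 0.22, limma adjusted p = 1.8e-07), and Ighd was higher by 4.58 (SE 0.20, limma adjusted p = 5.0e-08). These 4 passed in the same direction under all 21 alternative settings. Igkc, the kappa constant gene, did not pass between lung and colon (171 ± 35.6 against 318 ± 184 TPM, limma adjusted p = 0.083). It passed as lower in lung under median ratio scaling (log2 difference -1.16, limma adjusted p = 0.013), with array weights (-1.08, 0.012) and averaged over both treatments in all 18 libraries (-0.86, 0.023).

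Among V segments, Iglv3 and the kappa segments Igkv1-135, Igkv16-104 and Igkv17-127 were higher in lung. Iglv3 stood at 4.54, 6.78 and 3.46 TPM in lung vehicle libraries against 0.19, 0.63 and 1.21 TPM in colon. The 9 segments lower in lung were Ighv1-19, Ighv1-53, Ighv1-75, Ighv1-76, Ighv3-5, Igkv1-110, Igkv5-48, Igkv8-28 and Igkv8-30. Igkv5-48, for example, stood at 10.4, 5.9 and 26.4 TPM in colon against 0.61, 0.83 and 1.1 TPM in lung. For both segments the lung and colon vehicle values did not overlap.

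Most members tested were lower in liver than in colon, and the share called lower was near that of all genes. The log2 difference was negative for 58 of the 60 members and for 76.4% of all genes. Of the 60 members 35, Ighmbp2 among them, were called lower in liver and 2, Ighd and Ighm, higher, against 63.8% of all genes called lower and 16.1% higher. The log2 difference between liver and colon had a median of -1.55 over the members and of -0.68 over all genes. Igha was lower by 6.68 (SE 0.44, limma adjusted p = 6.8e-07) and Igkc by 4.27 (13.8 ± 1.39 against 318 ± 184 TPM, SE 0.36, limma adjusted p = 3.2e-06). Jchain was lower by 5.24 (SE 0.37, limma adjusted p = 9.7e-07). Ighm was higher in liver by 0.60 (7.11 ± 1.92 against 4.36 ± 1.29 TPM, SE 0.22, limma adjusted p = 0.030). Ighd, higher by 1.04 (SE 0.20), differed by 0.20 in the 9 RECTAS libraries (limma adjusted p = 0.73). The Ighm call was lost in 8 of 21 settings, among them without colon vehicle replicate 1 or 2 or liver vehicle replicate 3, and in the 9 RECTAS libraries the difference was -0.22 (limma adjusted p = 0.69).

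No member tested was called lower in lung than in liver. Of the 60 members 29, Ighmbp2 among them, were called higher in lung and 0 lower, against 74.5% of all genes called higher and 13.5% lower. The log2 difference between lung and liver had a median of 1.02 over the members and of 1.10 over all genes. An unadjusted p under 0.05 was found for 30 of the 60 members and for 14772 of all 16715 genes. The count rests on the scaling: median ratio scaling gave 14 higher and 0 lower, and quantile normalisation 8 higher and 1 lower, Ighmbp2. Ighm was higher in lung by 3.50 (SE 0.22, limma adjusted p = 3.0e-07), Ighd by 3.54 (SE 0.20, limma adjusted p = 1.5e-07) and Igkc by 3.52 (SE 0.36, limma adjusted p = 8.9e-06). Igha, at 12.6 ± 3.07 against 0.727 ± 0.249 TPM, was higher in lung by 2.96 (SE 0.44, limma adjusted p = 1.5e-04). Each of these 4 passed under all 21 settings.

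The same tissue contrasts in the 9 RECTAS libraries called 18, 46 and 30 of 64 members tested for lung against colon, liver against colon and lung against liver, against 76.1%, 80.8% and 88.7% of all genes. Of the members called in vehicle libraries, 10 of 17, 25 of 37 and 18 of 29 were called there too, all in the same direction.

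Kappa chains outnumbered lambda chains in every library. Igkc (ENSMUSG00000076609, chromosome 6, 70726435 to 70726966) stood at 270, 163 and 521 TPM in colon with vehicle, at 233, 724 and 181 TPM with RECTAS, at 133 to 204 TPM in lung and at 9.92 to 22.5 TPM in liver. The lambda constant genes held 24.3% to 34.8% of light constant TPM in lung, 16.6% to 30.1% in liver and 9.01% to 39.7% in colon. The spread between colon libraries was the widest: 39.7%, 9.01% and 30.8% with vehicle, and 17.5%, 12.7% and 15.1% with RECTAS.

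The 3 lambda constant genes divided this share differently from library to library in colon. They lie on chromosome 16 with Iglc3 and Iglc1 beside Iglv1, and with Iglc2 beside Iglv2 and Iglv3. The coding exons of Iglc2 and Iglc3 are near-identical copies (303 of 314 aligned bases, 96.5%), while Iglc1 shares 234 of 313 aligned bases with Iglc2. Coding stretches of 300 bases are shown because they make visible how few bases separate Iglc2 from Iglc3. Capitals mark the bases of Iglc2 and Iglc3 that are not aligned to the same base of the other, and those of Iglc1 not aligned to the same base of Iglc2. The sequences are from GENCODE M21, GRCm38, minus strand, at chr16:19198554-19198853, chr16:19065382-19065681 and chr16:19061772-19062071.
Iglc2: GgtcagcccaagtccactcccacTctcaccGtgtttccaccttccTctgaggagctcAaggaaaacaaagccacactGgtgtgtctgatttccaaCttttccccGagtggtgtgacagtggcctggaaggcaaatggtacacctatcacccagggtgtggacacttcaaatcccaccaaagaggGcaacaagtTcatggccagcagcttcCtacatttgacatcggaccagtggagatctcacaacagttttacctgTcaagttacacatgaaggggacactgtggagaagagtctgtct
Iglc3: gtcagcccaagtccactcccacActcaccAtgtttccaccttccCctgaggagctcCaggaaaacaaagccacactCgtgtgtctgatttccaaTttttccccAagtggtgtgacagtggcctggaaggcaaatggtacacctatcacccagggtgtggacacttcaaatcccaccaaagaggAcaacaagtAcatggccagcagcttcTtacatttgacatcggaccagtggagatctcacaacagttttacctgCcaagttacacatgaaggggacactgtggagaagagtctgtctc
Iglc1: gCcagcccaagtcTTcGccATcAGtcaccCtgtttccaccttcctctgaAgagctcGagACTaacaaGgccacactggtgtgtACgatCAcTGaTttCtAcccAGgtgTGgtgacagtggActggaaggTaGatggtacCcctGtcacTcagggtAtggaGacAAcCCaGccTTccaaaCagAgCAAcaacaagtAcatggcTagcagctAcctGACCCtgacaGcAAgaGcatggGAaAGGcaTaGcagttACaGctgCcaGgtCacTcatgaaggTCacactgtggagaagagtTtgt

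Of the 50-base windows of their transcripts, 7.65% of Iglc2 and 10.7% of Iglc3 were found in the other of this pair, and none of Iglc1 in any other gene (0%). The values of Iglc2 and Iglc3 are therefore less certain than that of Iglc1. Iglc1 stood at 160, 8.87 and 45.7 TPM in colon with vehicle and at 31.3, 30.4 and 10.3 TPM with RECTAS. Iglc2 stood at 10.2, 4.49 and 87.3 TPM and at 5.0, 23.0 and 7.83 TPM, and Iglc3 at 6.7, 2.77 and 99.4 TPM and at 12.9, 52.4 and 13.97 TPM. Colon vehicle library 1 was thus dominated by Iglc1, which held 90.5% of its lambda constant TPM, and colon vehicle library 3 by Iglc2 and Iglc3. Iglv1 stood at 110, 5.21 and 73.9 TPM in colon with vehicle, and Iglv2 at 2.46, 0.23 and 41.1 TPM, so vehicle library 3 alone had much of both. In lung the division was similar from library to library: Iglc1 held 14.7% to 25.2% of lambda constant TPM, Iglc2 39.2% to 44.0% and Iglc3 34.1% to 44.0%.

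Kappa V segments were used more evenly in every lung library than in any colon library, while for heavy V segments the tissues overlapped. In colon 14 to 30 heavy V segments and 22 to 39 kappa V segments reached 1 TPM per library, in lung 10 to 18 and 21 to 42, and in liver 0 to 1 and 0 to 3. The effective number of segments, which is the number that would give the observed concentration if all were used equally, was 4.95 to 19.3 for the heavy chain in colon and 15.1 to 26.2 in lung. For the kappa chain it was 7.85 to 18.8 in colon and 30.8 to 34.3 in lung, with means of 32.5 ± 1.26 and 32.7 ± 1.77 (SD, n = 3) for vehicle and RECTAS, so no lung library overlapped a colon library. In liver it was 8.65 to 11.95 and 9.28 to 20.4, on V segments of at most 3.28 TPM. Counting every matching row with no filter raised the mean heavy number in lung vehicle libraries from 22.9 to 35.9, over 1.5 times.

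**Figure D4:**
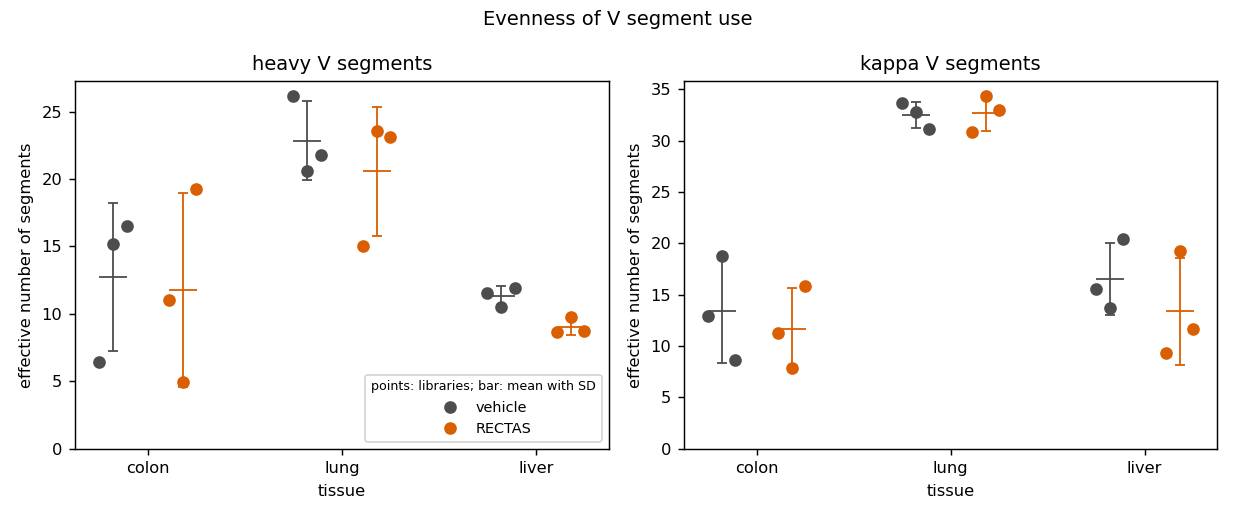
Effective number of heavy V segments (left) and kappa V segments (right) per tissue; points are libraries, bars are the mean with SD of 3, and colours separate vehicle from RECTAS. All 6 lung libraries lie at 30.8 or more for the kappa chain, above all colon and liver libraries.

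The leading heavy V segment held 11.6% to 42.8% of heavy V TPM in a colon library and 8.51% to 18.9% in a lung library. It was Ighv7-3 in colon vehicle library 1 (28.5 TPM, 35.6%), Ighv10-3 in vehicle library 2 (6.88 TPM), Ighv9-4 in vehicle library 3 (24.0 TPM) and Ighv5-4 in RECTAS library 1 (15.9 TPM). Ighv9-4 led again in RECTAS library 2, at 106 TPM and 42.8%, and in RECTAS library 3, at 4.32 TPM. In the other 3 colon libraries Ighv9-4 was listed at 0. In lung the leading segments were Ighv1-80, Ighv1-26, Ighv11-2, Ighv1-9, Ighv1-64 and Ighv3-6, a different one in each of the 6 libraries, none above 7.1 TPM.

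For the kappa chain Igkv10-96 and Igkv1-110 led most colon libraries. Igkv10-96 stood at 6.04, 6.41 and 50.2 TPM with vehicle and at 4.34, 142 and 10.5 TPM with RECTAS. Igkv1-110 stood at 17.2, 11.1 and 66.1 TPM and at 31.2, 14.9 and 3.37 TPM, although 50.9% of its 50-base windows are shared with other genes, mostly Igkv1-117. The 3 colon libraries with Ighv9-4 above 0 also had the 3 highest values of Igkv10-96, an order noticed after the values were seen and not tested. In lung Igkv10-96 was 2.45 to 5.94 TPM, with a coefficient of variation over 6 libraries of 35.2%, against 149% in colon.

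The V exons of this heavy and kappa segment are shown because they held the highest heavy V and the highest kappa V value of the 18 libraries. Ighv9-4 (ENSMUSG00000094322) lies at chromosome 12, 114299961 to 114300389, and Igkv10-96 (ENSMUSG00000094420) at chromosome 6, 68631963 to 68632442, both on the minus strand. The coding stretches below are from GENCODE M21 at chr12:114299966-114300265 and chr6:68631963-68632260. Capitals mark the bases that differ from a segment of the same family, Ighv9-3 (91.5% identity) for the heavy and Igkv10-94 (94.6% identity) for the kappa segment.
Ighv9-4: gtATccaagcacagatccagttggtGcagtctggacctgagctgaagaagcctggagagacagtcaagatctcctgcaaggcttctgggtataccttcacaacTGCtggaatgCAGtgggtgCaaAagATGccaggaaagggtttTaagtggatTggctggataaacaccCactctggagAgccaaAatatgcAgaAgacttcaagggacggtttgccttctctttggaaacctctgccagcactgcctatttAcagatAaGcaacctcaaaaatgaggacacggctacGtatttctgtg
Igkv10-96: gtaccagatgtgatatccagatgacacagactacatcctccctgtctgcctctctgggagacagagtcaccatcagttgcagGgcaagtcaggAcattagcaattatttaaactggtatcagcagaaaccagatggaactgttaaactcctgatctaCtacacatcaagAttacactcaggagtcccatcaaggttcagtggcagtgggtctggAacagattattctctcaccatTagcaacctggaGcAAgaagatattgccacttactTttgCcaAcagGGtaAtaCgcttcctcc

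Of the 50-base windows of Ighv9-4 18.9% are shared with another gene and of Igkv10-96 32.6%. In colon RECTAS library 2 Ighv9-3 was at 3.58 TPM and Igkv10-94 at 2.12 TPM. Over all members, 2 of 44 heavy and 11 of 60 kappa V segments share more than 50% of these windows with other genes, and their values are uncertain because reads could be split among copies. Ighv1-72 (92.5%), Igkv4-59 (74.3%) and Igkv3-12 (58.4%) are among them.

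**Figure D5:**
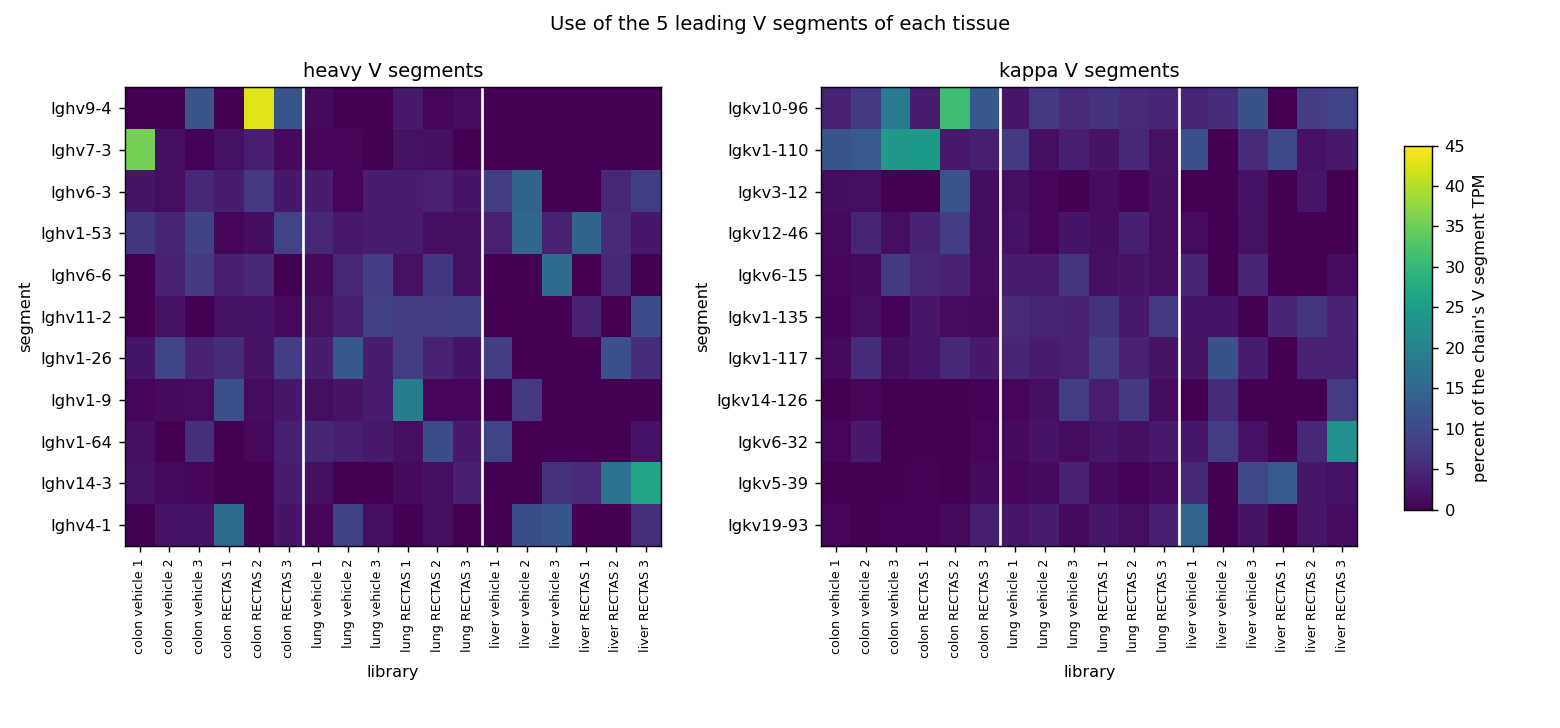
Percent of the TPM of heavy V segments (left) and kappa V segments (right) held by the 5 leading segments of each tissue, in 18 libraries; white lines separate colon, lung and liver. Single bright cells mark Ighv9-4 (42.8%) in colon RECTAS library 2 and Ighv7-3 (35.6%) in colon vehicle library 1, and no lung cell is above 18.9%.

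Several V segments were abundant in a single colon library. Of 107 V members 31 reached 10 TPM in at least 1 colon library, and 10 of them were there at least 5 times above the next colon library. Igkv3-12 stood at 53.1 TPM in RECTAS library 2 against 2.13 TPM in the next. Ighv5-4 stood at 15.9 TPM in RECTAS library 1 against 1.13 TPM, Ighv10-1 at 13.1 TPM in vehicle library 3 against 1.71 TPM, Igkv12-46 at 37.8 TPM in RECTAS library 2 against 5.39 TPM, and Ighv3-6 at 14.1 TPM in RECTAS library 2 against 2.02 TPM. The 10 segments fell on 4 libraries, vehicle 1 and 3 and RECTAS 1 and 2. Vehicle library 2 and RECTAS library 3 had the lowest summed immunoglobulin TPM in colon (430 and 485, against 715 to 2094). A floor of 10 TPM was therefore harder to reach in them. In lung 1 V member reached 10 TPM (Iglv1), and it did not stand 5 times above the next. In liver none reached 10 TPM, so the floor of 10 TPM left the tissues unequal in what could be found. Below that floor, Ighv1-9 stood at 7.1 TPM in lung RECTAS library 1 against 0.93 TPM in the next lung library. Igkv6-32 stood at 3.28 TPM in liver RECTAS library 3 against 0.6 TPM in the next liver library. The rule for members left out 2 further segments of this kind in colon vehicle library 1, Ighv2-2 at 24.0 TPM and Ighv2-5 at 15.4 TPM, both below 1 TPM in all other libraries.

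The spread between libraries of 1 group was of a different size in the tissues. For V segments averaging at least 1 TPM, the median coefficient of variation was 107% over 64 segments in colon vehicle libraries and 116% over 70 in colon RECTAS libraries, against 53.8% over 45 and 52.1% over 43 in lung. For Igkc it was 57.9% and 79.0% in colon and 20.8% and 17.5% in lung. Any 2 colon libraries shared 2 to 5 of their 10 leading V segments and any 2 lung libraries 3 to 6. Spearman's rho of V segment TPM between library pairs ran from 0.06 to 0.42 among colon libraries, from 0.32 to 0.58 among lung and from 0.02 to 0.34 among liver libraries, over 107 segments that share loci and sequence.

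Ighv11-2 and Igkv14-126, segments known from the phosphatidylcholine-binding antibodies of B-1a cells, an innate-like B cell class, were among the 5 leading segments of lung. Ighv11-2 stood at 0.77, 1.13 and 2.21 TPM in lung with vehicle and at 2.92, 3.21 and 2.33 TPM with RECTAS. Igkv14-126 stood at 0.62, 1.26 and 4.89 TPM and at 2.36, 8.13 and 0.93 TPM. In colon Igkv14-126 did not exceed 0.72 TPM, while Ighv11-2 reached 5.52 TPM in RECTAS library 2. The exons are shown as the pair behind these values, at chr12:114048248-114048547 (minus strand) and chr6:67896345-67896642 (plus strand). Capitals mark the bases that differ from Ighv11-1 (98.7% identity), with which 38.6% of windows are shared, and from Igkv14-111 (90.9% identity).
Ighv11-2: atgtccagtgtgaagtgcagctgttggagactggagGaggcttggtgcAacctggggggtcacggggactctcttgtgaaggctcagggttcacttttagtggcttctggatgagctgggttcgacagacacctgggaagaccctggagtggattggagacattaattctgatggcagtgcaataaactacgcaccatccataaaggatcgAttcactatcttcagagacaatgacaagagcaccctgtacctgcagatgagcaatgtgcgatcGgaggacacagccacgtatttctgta
Igkv14-126: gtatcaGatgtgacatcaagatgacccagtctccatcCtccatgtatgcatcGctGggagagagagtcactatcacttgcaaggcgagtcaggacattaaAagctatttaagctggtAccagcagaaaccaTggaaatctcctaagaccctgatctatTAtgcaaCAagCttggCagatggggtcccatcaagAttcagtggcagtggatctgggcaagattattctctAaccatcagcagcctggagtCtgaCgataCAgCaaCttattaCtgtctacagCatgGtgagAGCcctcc

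Colon RECTAS library 3 stood apart in B cell genes. Cd79a and Cd79b, the signalling chains of the B cell receptor, were at 5.95 and 5.08 TPM there and at no more than 0.9 TPM in the other 5 colon libraries. Of 14 B cell genes 12 were highest in that library, each at least 2-fold above the next, the exceptions being Ebf1 and Spib. The summed level of the list was 33.3 TPM there, 7.67 to 10.6 TPM in the other colon libraries, 116 to 174 TPM in lung and 6.14 to 13.4 TPM in liver. Ighm (24.9 TPM) and Ighd (4.73 TPM) were high in the same library, while Igha (82.6 TPM) was the second lowest in colon. The summed level of 9 lymphoid follicle genes was 48.6 TPM there, within the 34.5 to 52.8 TPM of the other colon libraries. Ccl21a carried most of that sum, at 36.7 TPM there and 28.9 to 47.8 TPM in the others. Ccl19 (1.6 TPM, against at most 0.19), Cxcr5 (1.04, 0.34), Ccr7 (0.8, 0.18), Fcer2a (1.33, 0.12), Ltb (3.5, 2.48) and Cxcl13 (3.37, 3.26) were highest there. Lta was not, and Glycam1 was listed at 0 in every colon library. Summed erythroid genes (117 TPM, against 24.1 to 79.8 TPM) and 8 summed T cell genes (29.7 TPM, against 20.0 to 25.8 TPM) were also highest in that library. The part of these cell types in the high Ighm was not tested.

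Of the 14 plasma cell and secretion genes, Sdc1, Xbp1 and Txndc5, which epithelium and hepatocytes also use, carried most of the sum in every tissue. Mzb1, an endoplasmic reticulum protein of B and plasma cells, stood at 0.28 to 2.11 TPM in colon, 5.24 to 9.33 TPM in lung and 0.12 to 0.67 TPM in liver. The sum lay at 353 to 475 TPM in colon. It lay at 461 to 482 TPM in lung and at 365 to 495 TPM in liver. Of the 13 tested, 9 were called higher and 1 lower in lung than in colon with vehicle, against 51% and 24.7% of all genes. Tnfrsf17, the BCMA receptor of plasma cells, stood at 0.2 to 0.8 TPM in 5 colon libraries and at 0.0 TPM in RECTAS library 3. Of the B cell list 13 of 14 genes were called higher in lung than in colon (51% of all genes), and 14 of 14 higher in lung than in liver (74.5% of all genes). Between liver and colon 7 were higher in liver and 2 lower, against 16.1% and 63.8% of all genes. Pigr, which carries dimeric IgA across epithelium, stood at 760 to 1105 TPM in colon, 423 to 548 TPM in liver and 20.7 to 45.3 TPM in lung. Ccl28, a chemokine that draws IgA plasma cells, stood at 14.5 to 33.8 TPM in colon and at 0.24 TPM or less elsewhere. Rag1 and Rag2, the recombinase of V segment joining, did not exceed 0.03 TPM in any library.

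The effect of RECTAS on members was tested within each tissue. In colon 65 members were tested and 0 were called by limma, as was 0% of all 14282 genes. An unadjusted p under 0.05 was found for 6 members and for 231 of all genes. One member, Igkv4-53, lay above all vehicle libraries in all RECTAS libraries (background 3.43%), and 3, Ighv1-76, Igkv5-48 and Igkv8-28, lay below (background 2.01%). Igkv4-53 stood at 0.34, 0.77 and 0.37 TPM with vehicle and at 2.19, 3.14 and 2.79 TPM with RECTAS, a log2 difference of 1.32 (SE 0.19, limma adjusted p = 0.69). Igkv8-28 stood at 17.5, 4.02 and 4.04 TPM with vehicle and at 0, 0.92 and 0 TPM with RECTAS, a log2 difference of -2.64 (SE 0.54, limma adjusted p = 1.0). Igha differed by -0.09 (SE 0.67) and Igkc by 0.14 (SE 0.59), both within the spread of their libraries. Ighm differed by 1.02 (12.3 ± 11.03 against 4.36 ± 1.29 TPM, SE 0.53, limma adjusted p = 1.0), and without RECTAS replicate 3 the difference was 0.38.

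In lung 58 members were tested and 0 were called, against 0.00637% of all 15699 genes. An unadjusted p under 0.05 was found for 7 members and for 1977 of all genes. The RECTAS libraries lay above the vehicle libraries for 4 members, Ighv11-2, Igkv6-23, Igkv6-32 and Igkv8-21 (background 16.1%), and below for 3, Ighv1-18, Igkv6-15 and Iglv3 (background 3.18%). Ighv1-18 stood at 1.07, 1.32 and 1.86 TPM with vehicle and at 0, 0.25 and 0.48 TPM with RECTAS, a log2 difference of -0.96 (SE 0.21, limma adjusted p = 0.26). Ighv11-2 differed by 0.73 (SE 0.23, limma adjusted p = 0.32). Ighm, Ighd, Igha and Igkc differed by -0.15, -0.25, 0.18 and -0.08, and their groups overlapped.

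In liver 6 members were tested and 0 were called, against 0.0167% of all 11944 genes. An unadjusted p under 0.05 was found for 0 members and for 1388 of all genes. Ighmbp2 alone lay above (background 5.75%), at 1.74, 1.83 and 1.72 TPM against 1.63, 1.53 and 1.1 TPM, and 0 members lay below (background 13%). Ighm differed by 0.20 (8.56 ± 3.34 against 7.11 ± 1.92 TPM, SE 0.29).

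Tests of the difference of the RECTAS effect between tissues, over 92 members in all 18 libraries, called 0 members by limma. The background was 0.0114% for lung against colon, 0.0285% for liver against colon and 0.0228% for liver against lung. At an unadjusted p under 0.05 there were 7, 8 and 2 of the 92 members, against 564, 942 and 1575 of all 17537 genes tested. The smallest adjusted p was that of Igkv4-53 in liver against colon (difference of effects -1.56 on the log2 scale, SE 0.30, limma adjusted p = 0.16). In liver this segment was listed at 0 in 5 of 6 libraries and at 0.67 TPM in 1 vehicle library. The difference of effects thus came mostly from the colon libraries. It was called with the replicate number within each treatment as a block and with a pseudocount of 5 TPM, the 1 member called in each.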

How the data were processed

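TPM values per gene were used as deposited, 1 file for each of the 18 libraries. Per the labels' protocols, TRIzol was used for extraction and a TruSeq stranded kit for libraries of polyA RNA. Per the submitters' processing notes, HISAT2 2.2.0 and RSEM 1.3.0 were used with GRCm38, and the role of each tool is not given in the sources used here. RSEM, where used for quantification, divides reads among similar genes, so V segments with near-identical copies are less certain. All 383 matching rows were found in GENCODE M21, which gave positions, transcript lengths and sequences.

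Members and gene lists were chosen with earlier results of these data known. Differences were tested with limma 3.58.1 (R 4.3.3, trend) on log2(TPM + 1), for genes of at least 1 TPM in at least 3 libraries of the fit. P-values were adjusted by Benjamini-Hochberg over all genes tested, with a threshold of 0.05. RECTAS was compared with vehicle in the 6 libraries of a tissue, tissues in the 9 vehicle libraries, and RECTAS effects between tissues in all 18. Shares, effective numbers (the inverse Simpson index) and sums are given without a test. Identity between the lambda constant genes came from global alignment with Biopython 1.88. V segments were compared base by base without gaps. The partner shown was the most identical segment of the same chain with a coding exon of equal length.

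Constant genes, Jchain and Ighmbp2 were always named, with the 5 leading V segments of each chain and tissue, up to 10 called members per direction, up to 5 segments abundant in 1 library, and up to 4 genes of the B cell and plasma cell lists. Members whose treatment groups did not overlap, and other genes outside this rule, were named after their values were seen. The fit was tested on simulated data.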

Additional observations from a re-analysis of the deposited data

How the results depend on the processing

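Of the counts of members called, 86 of 99 under other settings and 99 of 99 with 1 library left out stayed within 1.5 times of the value given. Most of these were RECTAS or interaction counts with a value of 0, where 0 against 0 counted as unchanged. Of the 13 that moved, most were tissue counts, which were less stable than the pooled figure. For log2 differences of constant genes, Jchain and Ighmbp2, 576 of 620 and 381 of 420 kept their direction and their side of the threshold. For shares and effective numbers 58 of 72 moved by less than 1 SD under other settings. With 1 library left out 108 of 108 did. In groups of this size leaving out 1 library cannot move the mean by 1 SD, so the 108 of 108 says nothing about stability. Where a value moved, the cause was not tested, apart from settings that test other genes or use more libraries. The lung against liver count of 29 became 45 with a pseudocount of 0.1 TPM, 19 with 5 TPM, 9 with a filter of 5 TPM, 9 under quantile normalisation, 14 under median ratio scaling and 56 averaged over both treatments in all 18 libraries. The lung against colon count of 17 became 6 with the filter of 5 TPM, 28 with array weights and 32 averaged over both treatments. The filter left 12 members tested and the average 92, against 60. The liver against colon count of 37 became 12 with that filter and 73 averaged over both treatments. With 1 library left out these counts ran from 20 to 38, from 14 to 24 and from 32 to 41, and all RECTAS and interaction counts stayed at 0.

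The labels do not say what a replicate number shares, and the numbers were not treated as pairs, since in no pair of groups was every correlation of same-numbered libraries over 0.1. Over all genes these ran from -0.098 to 0.051 between colon and lung with vehicle, and were 0.418, -0.063 and 0.320 between lung vehicle and RECTAS. Over the 107 V segments each number correlated best with its own for colon and lung with vehicle (0.081 to 0.206), colon and liver with vehicle (0.065 to 0.272) and colon and lung with RECTAS (0.057 to 0.107), a hint from the data and not from the design. With the replicate block the tissue counts were 20 for lung against colon, 42 for liver against colon and 34 for lung against liver, and the RECTAS counts 0. For the difference of RECTAS effects the block was the replicate number within each treatment. Between liver and colon it called 1 member, Igkv4-53, and a pseudocount of 5 TPM called the same 1.

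Some log2 differences reversed. With array weights they were -0.058 for Iglc3 in colon, 0.064 for Ighmbp2 in lung and 0.19 for Ighd in liver (RECTAS against vehicle), and 0.070 for Ighg1, -0.023 for Iglc2 and -0.054 for Iglc3 (lung against colon). Ighd in liver was 0.028 under quantile normalisation and 0.0038 under median ratio scaling. Ighg1 between lung and colon was 0.0058 with a pseudocount of 5 TPM. Ighmbp2 was -0.41 (lung against colon), 0.11 (liver against colon) and -0.53 (lung against liver) under quantile normalisation, called at limma adjusted p = 0.016, not called (0.45) and called at 0.0045, and -0.084 (lung against colon) under median ratio scaling. Ighm between liver and colon was -0.22 in the 9 RECTAS libraries.

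With 1 library left out, RECTAS differences in colon ran from -0.69 to 0.40 for Igha, -0.056 to 0.87 for Ighg1, -0.14 to 0.0029 for Ighmbp2, -0.47 to 0.58 for Igkc, -1.94 to 0.071 for Iglc1, -1.54 to 0.47 for Iglc2, -0.32 to 2.05 for Iglc3 and -0.92 to 0.096 for Jchain. In lung they ran from -0.055 to 0.49 for Igha, -0.88 to 0.63 for Ighg1, -0.10 to 0.11 for Ighmbp2, -0.25 to 0.059 for Igkc, -0.39 to 0.24 for Iglc1 and -0.46 to 0.041 for Jchain. In liver they ran from -0.18 to 0.14 for Ighd and -0.043 to 0.49 for Ighm. Ighg1 between lung and colon ran from -1.16 to 0.35.

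Weighted by gene length, the Igha share was 12.6% and 15.9% in lung (vehicle and RECTAS) and 9.27% and 13.9% in liver, the Ighm share 62.9% in lung and 66.8% in liver with RECTAS, and the Iglc1 share of lambda 15.8% in lung with vehicle. Over every matching row, the Ighm share in liver with RECTAS was 66.0%, the heavy V effective number 35.9 and 30.1 in lung and 14.2 and 13.3 in liver, and the kappa V number 37.7 and 37.2 in lung. TPM gives no depth, so low V values in liver have no counting interval.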
